A study of Mus musculus with 8 samples.

Results

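*Lrig1* encodes a leucine-rich repeat transmembrane protein of adult neural stem cells, and its locus on mouse chromosome 6 is flanked by genes with unrelated functions. The 10 genes described here lie on either side of it. They are *Prickle2*, *Adamts9*, *Magi1* and *Slc25a26* on the side of lower coordinates, and *Kbtbd8*, *Suclg2*, *Tafa1*, *Frmd4b*, *Mitf* and *Foxp1* on the side of higher coordinates. They were chosen by name for their position, from the 54307 genes of the deposited gene table, and all 10 were present and passed the filter on low counts. The question is whether genes beside the targeted allele, including genes within the flanking DNA that travels with it, differed between genotypes.

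Periventricular tissue containing the ventricular-subventricular zone (V-SVZ, the stem cell niche along the lateral ventricles) was sequenced from 4 *Lrig1* KO mice (2 female, 2 male) and 4 WT mice (3 female, 1 male), all 8 weeks old and on the 129-Elite strain background. The KO mice were homozygous for an allele with CreERT2, a tamoxifen-inducible Cre recombinase, placed in exon 1 of *Lrig1*, and came from crosses of heterozygous mice, with littermates that carried the wild-type allele on both chromosomes as WT. Each library is polyA-selected RNA from 1 hemisphere of 1 mouse, so the mouse is the replicate. The strain of the DNA around the inserted cassette is not given in the sources used here. KO mice carry that flanking DNA on both chromosomes, so an effect of it and an effect of losing *Lrig1* cannot be told apart in this comparison. Estimated counts summed to between 47887437 and 61826150 in WT mice and to between 52664769 and 74482334 in KO mice.

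When a gene is replaced by a cassette in the germ line, nearby genes can be affected by the loss of regulatory DNA within the targeted gene, by the promoter or terminator of the cassette, or by variants of the donor strain that stay linked to the allele through backcrossing. Such effects are local on the chromosome, while the genes concerned need share no function. The neighbours of *Lrig1* are of this kind. *Slc25a26* and *Suclg2* act in mitochondria, *Kbtbd8* in protein ubiquitylation, *Magi1*, *Frmd4b* and *Prickle2* at cell junctions and in cell polarity, *Adamts9* and *Tafa1* encode secreted proteins, and *Mitf* and *Foxp1* encode transcription factors.

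The start of *Lrig1*, where the cassette was placed, and the nearest protein-coding start on the other side of it, that of *Kbtbd8*, are shown because they face away from each other across the same interval. The sequences are RefSeq promoter entries of build GRCm38.p6, each with 250 bases before the start and 50 after, written 5′ to 3′ on the strand of the gene. Capitals mark CpG dinucleotides. The *Lrig1* entry is chr6:94700096-94700395 on the minus strand, and the *Kbtbd8* entry is chr6:95117630-95117929 on the plus strand.
Lrig1 start: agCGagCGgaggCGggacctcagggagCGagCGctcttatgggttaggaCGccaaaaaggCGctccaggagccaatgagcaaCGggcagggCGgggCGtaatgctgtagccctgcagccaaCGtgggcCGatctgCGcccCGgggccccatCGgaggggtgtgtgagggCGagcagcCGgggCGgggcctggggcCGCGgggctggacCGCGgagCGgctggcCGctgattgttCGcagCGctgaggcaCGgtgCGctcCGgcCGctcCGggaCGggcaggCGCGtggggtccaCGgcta
Kbtbd8 start: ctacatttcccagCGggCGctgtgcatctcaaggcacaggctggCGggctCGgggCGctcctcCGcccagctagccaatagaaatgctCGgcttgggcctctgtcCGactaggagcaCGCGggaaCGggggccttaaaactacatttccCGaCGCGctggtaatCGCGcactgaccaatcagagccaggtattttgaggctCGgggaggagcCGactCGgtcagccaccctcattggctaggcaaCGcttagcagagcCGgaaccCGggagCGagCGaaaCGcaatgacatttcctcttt
The *Lrig1* start holds 35 CpG, a number reached by 7.0% of the 32851 promoter entries of the table, whose median is 7. The *Kbtbd8* start holds 25 CpG, reached by 18.4% of entries. Entries were found for 9 of the 10 neighbours, with none for *Slc25a26*.

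*Lrig1* was lower in every KO mouse than in any WT mouse. Values are estimated counts scaled to a common library size by TMM normalization (CPM). *Lrig1* was at 45.6, 13.5, 41.4 and 34.3 CPM in WT mice 1 to 4 and at 1.41, 4.15, 1.17 and 2.96 CPM in KO mice 1 to 4. The log2 fold change, KO minus WT, was −3.80 (SE 0.52, 95% interval −4.97 to −2.63). Its adjusted p in edgeR's quasi-likelihood test was 0.286 without covariates and 0.000176 with sex as a covariate, with Benjamini-Hochberg adjustment over 17669 genes, and a two-sided exact permutation test gave p = 0.0286, the smallest that 4 against 4 mice allow. In DESeq2 the adjusted p of *Lrig1* was 4.46e-08 without sex and 4.88e-97 with sex. The level of the targeted gene went with the label in 8 of 8 mice.

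None of the 10 neighbours passed the test. In edgeR's quasi-likelihood test, 0 of 10 had an adjusted p under 0.1, beside 0.00566% of all genes tested (1 of 17669). This threshold was used for all comparisons of genotypes. *Lrig1* itself did not pass this threshold (adjusted p 0.286), so the lack of a call does not show that a neighbour is unchanged. At an unadjusted p under 0.05 the count was also 0 of 10, beside 1.88% of all genes. With sex as a covariate, edgeR's test called 0.0113% of all genes and gave an unadjusted p under 0.05 in 6.95%. DESeq2 called 0.0619% and 1.66% at the same thresholds without sex, and 1.13% and 4.65% with sex, with 0 of the 10 at either threshold. WT and KO values overlapped for each of the 10 neighbours, while 1.53% of all genes had groups that did not overlap. The lowest unadjusted p among the neighbours was 0.254, for *Frmd4b*.

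**Figure D1:**
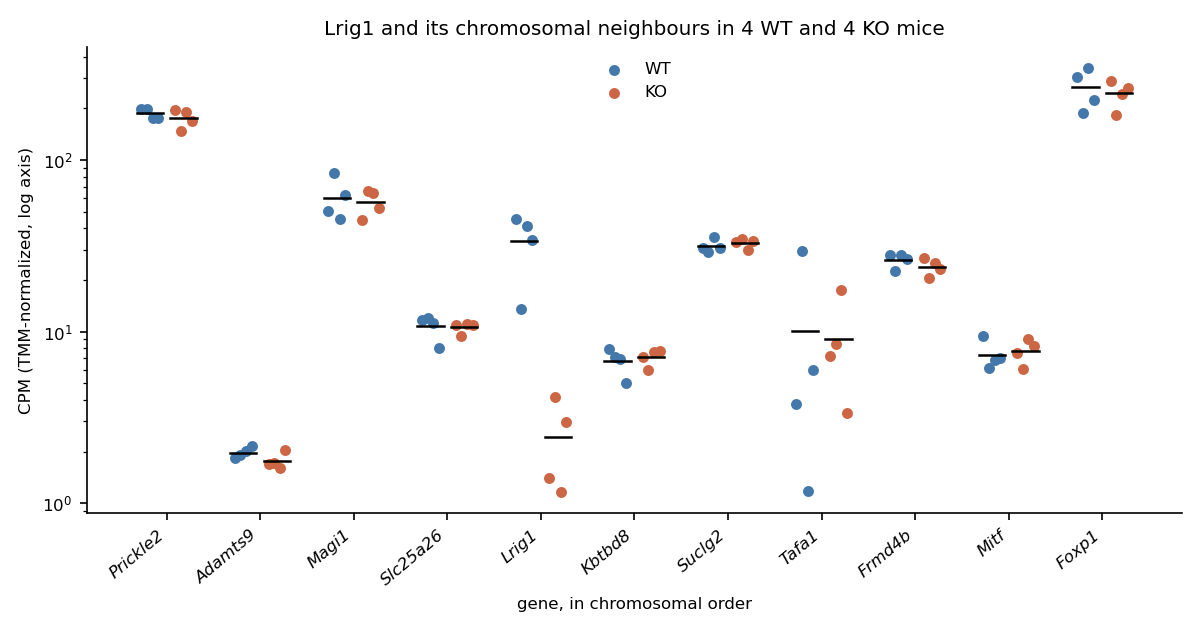
CPM (log axis) of *Lrig1* and its 10 neighbours in chromosomal order, with 1 point for each of the 4 WT and 4 KO mice and a black line at the mean of each group. *Lrig1* separates the groups (13.5 CPM or more in WT, 4.15 or less in KO), while the WT and KO points of each neighbour overlap.

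The log2 fold changes of the neighbours ran from −0.16 (*Adamts9*) to 0.08 (*Kbtbd8*), with 7 below 0 and 3 above. Of all genes tested, 50.3% were below 0. The median of the neighbours was −0.09, against −0.00094 for all genes, and the median size without sign was 0.0906, against 0.0947 for all genes. The 95% interval of the fold change lay within 2-fold in either direction for 9 of the 10 genes, all but *Tafa1*, and within 1.5-fold for 8 of them, all but *Tafa1* and *Foxp1*. Smaller differences within these intervals could not be detected with 4 mice of each genotype.

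**Figure D2:**
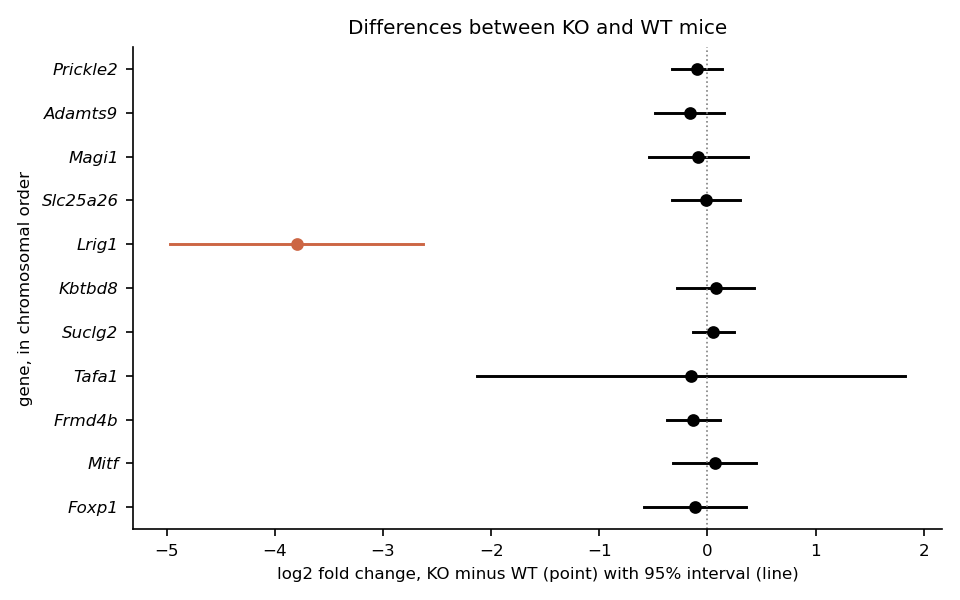
Log2 fold change (KO minus WT, points) with 95% intervals (lines) from edgeR's quasi-likelihood fit, for *Lrig1* and its neighbours in chromosomal order. The interval of *Lrig1* lies between −4.97 and −2.63, and the interval of every neighbour includes 0, with the widest for *Tafa1*.

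*Slc25a26* is the protein-coding gene next to *Lrig1* on the side of lower coordinates. It lies on the opposite strand, and its annotated span overlaps that of *Lrig1*. Where strand was not used, reads from the overlap may have been shared between both genes. Whether the overlap includes exons was not examined. It encodes the mitochondrial carrier that brings S-adenosylmethionine into the matrix, where it serves as methyl donor. *Slc25a26* was at 11.7, 12.1, 11.2 and 8.01 CPM in WT mice 1 to 4 and at 11.0, 9.45, 11.1 and 10.9 CPM in KO mice 1 to 4. WT mouse 4 was the lowest, and the other 7 mice lay between 9.45 and 12.1 CPM. KO minus WT was −0.02 on the log2 scale (95% interval −0.33 to 0.30, edgeR's adjusted p 1.0). While *Lrig1* was at 7.19% of its WT mean in KO mice, the interval for *Slc25a26* was 0.794 to 1.23 times the WT level.

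*Kbtbd8* is the next protein-coding gene on the other side. Its product is a substrate adaptor of the CUL3 ubiquitin ligase known for its part in neural crest specification. *Kbtbd8* was at 7.93, 7.09, 6.88 and 5.04 CPM in WT mice 1 to 4 and at 7.13, 5.94, 7.61 and 7.72 CPM in KO mice 1 to 4. The lowest value was again that of WT mouse 4, and the KO values lay within the WT range. The log2 difference was 0.08 (95% interval −0.28 to 0.43). *Suclg2*, which follows on the same side after the predicted gene *Gm10234*, encodes the GTP-specific beta subunit of succinyl-CoA synthetase in the citric acid cycle. It was the steadiest of the 10, at 30.9, 29.3, 35.6 and 30.6 CPM in WT mice 1 to 4 and at 33.3, 34.6, 29.8 and 33.6 CPM in KO mice 1 to 4, a log2 difference of 0.05 (95% interval −0.14 to 0.25). Its SD between mice of 1 genotype was 0.11 on the log2 scale, against a median of 0.21 over all genes.

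Genes of cell junctions and polarity also overlapped between genotypes. *Magi1*, the second protein-coding gene on the side of lower coordinates, encodes a scaffold protein of tight and adherens junctions. It was at 50.7, 83.4, 45.1 and 62.5 CPM in WT mice 1 to 4 and at 44.4, 66.2, 64.6 and 52.8 CPM in KO mice 1 to 4. The spread within WT mice was larger than the difference between genotypes, which was −0.08 on the log2 scale (95% interval −0.54 to 0.38). *Prickle2*, a cytoplasmic component of planar cell polarity signalling that is also found at synapses, was at 198, 199, 176 and 176 CPM in WT mice 1 to 4 and at 194, 147, 191 and 168 CPM in KO mice 1 to 4. KO mouse 2 was the lowest, and the log2 difference was −0.10 (95% interval −0.33 to 0.14). *Frmd4b*, which encodes a FERM domain scaffold that binds cytohesins, was at 27.97, 22.4, 27.94 and 26.4 CPM in WT mice 1 to 4 and at 26.8, 20.5, 25.0 and 23.3 CPM in KO mice 1 to 4. Mouse 2 was the lowest of its genotype in each group, and the log2 difference was −0.13 (95% interval −0.38 to 0.11).

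Of the genes for secreted proteins, *Adamts9* had the lowest level and *Tafa1* the widest spread. *Adamts9* encodes a metalloproteinase that cleaves the proteoglycans versican and aggrecan. It was at 1.83, 1.90, 2.003 and 2.16 CPM in WT mice 1 to 4 and at 1.70, 1.71, 1.60 and 2.03 CPM in KO mice 1 to 4. In KO mice 1 to 3 it lay below every WT mouse, and KO mouse 4 lay within the WT range. The log2 difference was −0.16 (95% interval −0.48 to 0.16), with p = 0.114 in a two-sided exact permutation test and an adjusted p of 1.0 in edgeR's test. The counts behind it were 87 to 129 in a mouse.

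*Tafa1* encodes a chemokine-like protein secreted by neurons. It was at 3.78, 29.5, 1.17 and 6.01 CPM in WT mice 1 to 4 and at 7.19, 8.50, 17.4 and 3.34 CPM in KO mice 1 to 4. The highest and the lowest of the 8 values were both WT, and they differed 25.2-fold. The SD between mice of 1 genotype was 1.52 on the log2 scale, larger than that of 98.5% of all genes tested. The log2 difference was −0.15, with a 95% interval from −2.14 to 1.83, so for *Tafa1* a difference of up to about 0.228 or 3.55 times the WT level lies within the error. Without WT mouse 2 the log2 difference was 1.32.

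Both transcription factors were measured in every mouse. *Mitf* encodes the factor that controls melanocyte and osteoclast differentiation and, with its relatives, lysosomal genes. It was at 9.43, 6.14, 6.82 and 7.01 CPM in WT mice 1 to 4 and at 7.50, 6.04, 9.01 and 8.20 CPM in KO mice 1 to 4, a log2 difference of 0.07 (95% interval −0.32 to 0.45). *Foxp1* encodes a forkhead repressor that is abundant in striatal projection neurons. It was at 305, 187, 343 and 224 CPM in WT mice 1 to 4 and at 287, 184, 242 and 263 CPM in KO mice 1 to 4. All KO values but that of mouse 2 lay within the WT range, and the log2 difference was −0.12 (95% interval −0.59 to 0.35).

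Levels of the neighbours were compared with each other in TPM, the abundance of transcripts corrected for their length. *Foxp1* was the highest, with a median of 85.5 TPM over the 8 mice, followed by *Prickle2* at 35.7 TPM and *Suclg2* at 17.2 TPM. *Magi1* (14.8 TPM), *Frmd4b* (8.63 TPM), *Slc25a26* (8.42 TPM), *Tafa1* (2.97 TPM), *Mitf* (2.45 TPM) and *Kbtbd8* (2.21 TPM) came next, and *Adamts9* was the lowest at 0.359 TPM. The ranges over the 8 mice were separate for *Foxp1* and *Prickle2*, for *Prickle2* and *Suclg2*, and for *Kbtbd8* and *Adamts9*. All other neighbours in this order overlapped. *Lrig1* was at 9.40 ± 3.55 TPM in WT mice and at 0.687 ± 0.406 TPM in KO mice (SD, n = 4).

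Other genes on the chromosome were counted in the same fit. Some of them lie nearer to *Lrig1* than *Frmd4b*, *Mitf* and *Foxp1*, so the 10 neighbours are not the 10 nearest genes. Of the 155 annotated genes whose start lies within 5 Mb of that of *Lrig1* in GRCm38, 144 are neither *Lrig1* nor among the 10, and 40 of these were tested. None of the 40 had an adjusted p under 0.1 in edgeR's test, and 1 had an unadjusted p under 0.05 (2.5%, against 1.88% of all genes). DESeq2 without covariates, which gave a p for 80 of these genes, also had 1 with an unadjusted p under 0.05 and none with an adjusted p under 0.1. Their log2 fold changes were below 0 in 18 genes and above 0 in 22, with a median of 0.03. Within 1 Mb, the only genes tested beside *Lrig1* were 3 of the neighbours. Over the whole of chromosome 6, this window included but *Lrig1* and its 10 neighbours left out, 12 of 864 genes had an unadjusted p under 0.05 (1.39%).

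The 1 gene in edgeR's test was *Fbln2*, which encodes fibulin 2, a glycoprotein of the extracellular matrix and basement membranes. *Fbln2* was at 5.99, 5.73, 6.82 and 6.99 CPM in WT mice 1 to 4 and at 6.05, 4.32, 4.88 and 4.16 CPM in KO mice 1 to 4. In KO mice 2 to 4 it lay below every WT mouse, and KO mouse 1 lay within the WT range. The log2 difference was −0.40 (95% interval −0.73 to −0.06), with an unadjusted p of 0.0246 and an adjusted p of 1.0 in edgeR's test, and p = 0.0857 in a two-sided exact permutation test. Leaving out WT mouse 3, WT mouse 4, KO mouse 2 or KO mouse 4 left 0 of the tested genes with an unadjusted p under 0.05. *Fbln2* lies beyond *Prickle2* as seen from *Lrig1*, and the tested genes between them had unadjusted p values above the threshold.

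**Figure D3:**
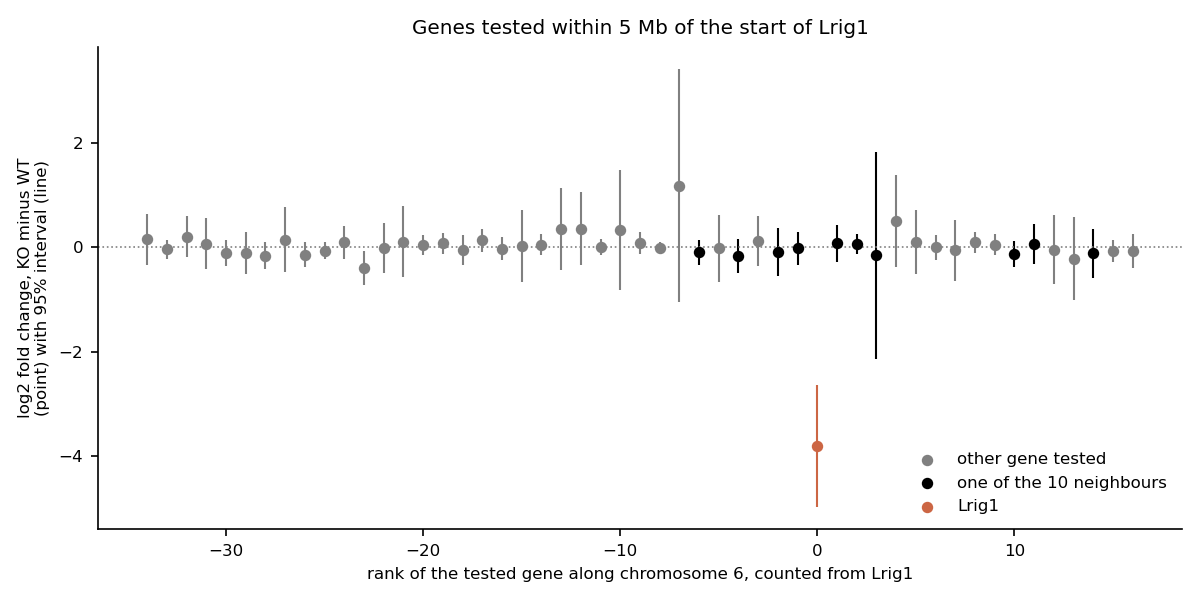
Log2 fold change (KO minus WT) with its 95% interval for the 51 genes tested within 5 Mb of the start of *Lrig1*, by their rank along chromosome 6 counted from *Lrig1*. *Lrig1* lies at −3.80, below all other genes, and the wide intervals are those of genes that vary between mice, such as *Tafa1*.

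The level of *Magi1* varied between mice with a set of striatal markers. Those of *Foxp1* and *Tafa1* had relations with that set that did not pass the stricter threshold of 0.05 used for relations. In bulk tissue, fewer cells of a type and less RNA per cell cannot be told apart. Summed CPM of 10 markers of striatal medium spiny neurons (all 10 tested, 0 called) ran from 2904 in WT mouse 2 to 9009 in WT mouse 3, and from 4518 to 7300 in KO mice. Summed CPM of 10 cortical excitatory markers (all 10 tested, 0 called) was 6731 in WT mouse 2, between 2906 and 3123 in the other WT mice, and between 2132 and 3800 in KO mice. WT mouse 2 thus had the highest cortical and the lowest striatal marker level. It was also the only male WT mouse, so among WT mice its sex and its tissue content cannot be told apart. Among KO mice the cortical sum was 3434 and 3800 CPM in the males (mice 1 and 3). It was 2132 and 2253 CPM in the females (mice 2 and 4). Over both genotypes, every male thus lay above every female in cortical marker level, and the cause was not tested. WT mouse 2 had the highest *Magi1* and *Tafa1* and, among WT mice, the lowest *Foxp1* and *Lrig1*.

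Each neighbour was compared with the summed level of 12 marker lists over the 8 mice, 120 relations in all, by exact permutation tests on the log2 scale with Benjamini-Hochberg adjustment over the 120. *Magi1* fell with the striatal marker sum (Pearson's r = −0.96, exact permutation p = 0.000372, adjusted p 0.0446, and Spearman's rho = −0.93, exact permutation p = 0.00223, adjusted p 0.134), with r = −0.90 without WT mouse 2 and KO mouse 2, the mice farthest from the median of the marker sum. It was the only relation with an adjusted p under 0.05 by Pearson's r, and none passed by Spearman's rho. At the threshold of 0.1 used for genotypes, the relation of *Foxp1* would also pass by Pearson's r, and again none by Spearman's rho. *Foxp1* ran the other way (r = 0.91, exact permutation p = 0.000893, adjusted p 0.0536, rho = 0.95, exact permutation p = 0.00114, adjusted p 0.134, r = 0.90 without the same mice). *Tafa1* had r = −0.89 (exact permutation p = 0.00288, adjusted p 0.115) and rho = −0.86 (exact permutation p = 0.0107, adjusted p 0.214), with r = −0.89 without those mice. These relations were not tested within each sex, with 3 males and 5 females.

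**Figure D4:**
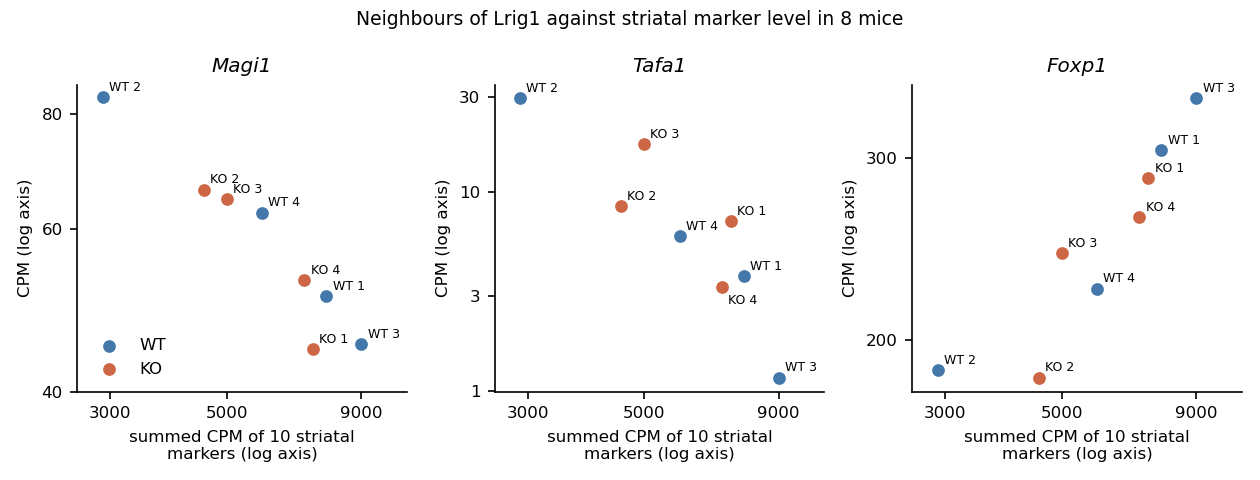
CPM of *Magi1*, *Tafa1* and *Foxp1* against the summed CPM of 10 striatal markers in each of the 8 mice (both axes log). *Magi1* and *Tafa1* are highest in WT mouse 2, where the marker sum is 2904, and lowest or near lowest in WT mouse 3, where it is 9009, while *Foxp1* runs from 187 to 343 CPM between the same mice.

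These 3 genes were picked for their relation to the striatal markers, so a smaller error with those markers in the fit follows from that choice. With the mean log2 CPM of the striatal markers as a covariate, the error of the genotype difference became smaller for all 3. *Magi1* then differed by −0.06 (SE 0.07, against 0.20 without the covariate), *Foxp1* by −0.10 (SE 0.10, against 0.21) and *Tafa1* by 0.63 (SE 0.38, against 0.87), with adjusted p values of 0.985 for each in edgeR's test. The sign of *Tafa1* turned, and no call was gained. Of the 45 pairs of neighbours, *Magi1* and *Foxp1* had the lowest p (r = −0.90, exact permutation p = 0.00238, adjusted p 0.107, and rho = −0.88, exact permutation p = 0.00724, adjusted p 0.163, with r = −0.93 without WT mouse 2 and KO mouse 1). *Slc25a26* and *Kbtbd8*, which flank *Lrig1*, had r = 0.92 (exact permutation p = 0.00965, adjusted p 0.145) and rho = 0.48 (exact permutation p = 0.243, adjusted p 0.684), but r = −0.04 without WT mouse 4 and KO mouse 2, so that relation rests on those mice.

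Genes most like each neighbour in their variation among mice were found by Pearson's r of log2 CPM over the 8 mice, after the mean of each genotype was taken out, among 14452 genes with a mean of at least 1 CPM. These are the top values among many genes and are given as a description. *Tafa1* was most like *Doc2a* and *Syp*, genes of synaptic vesicle release, with r = 1.0 and 0.99. *Adamts9* was most like the immediate early genes *Junb* (r = 0.97) and *Nr4a1* (r = 0.96). *Magi1* was most like *Pip5k1b* and *Kcnk3* (r = 0.99 for each), and *Foxp1* like *Btg3* and *Cacna2d3* (r = 0.99 for each). None of these genes is among the neighbours of *Lrig1*.

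Genes related to the neighbours in sequence or function lie elsewhere in the genome for the most part, and were taken from lists chosen for this purpose. Of 33 relatives (other members of the same families), 30 were tested, with 0 called and a median log2 fold change of −0.03. Groups did not overlap for 2 of the 30, beside 1.53% of all genes. An unadjusted p under 0.05 in edgeR's test was found for 1 of the 30, beside 1.88% of all genes. That gene was *Tfeb*, the relative of *Mitf* that governs lysosome formation. *Tfeb* was at 7.99, 8.87, 9.04 and 9.60 CPM in WT mice 1 to 4 and at 7.87, 7.52, 7.84 and 7.06 CPM in KO mice 1 to 4. The groups did not overlap, and the log2 difference was −0.23 (95% interval −0.45 to −0.01, unadjusted p 0.0401 and adjusted p 1.0 in edgeR's test). *Suclg1*, the alpha subunit that pairs with *Suclg2*, differed by 0.13 on the log2 scale, and *Sucla2*, the ATP-specific counterpart of *Suclg2*, by 0.11, neither of them past the test. *Tfe3*, another relative of *Mitf*, also had groups that did not overlap (33.3 ± 0.788 CPM in WT and 30.8 ± 0.709 CPM in KO, SD, n = 4), with a log2 difference of −0.11 and an adjusted p of 1.0 in edgeR's test.

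Of 41 partners (genes that act in the same pathway or complex), 40 were tested, with 0 called, 0 at an unadjusted p under 0.05 in edgeR's test and a median log2 fold change of −0.03. Among the substrates of *Adamts9*, *Vcan* (versican) differed by −0.11 and *Acan* (aggrecan) by −0.15. *Cul3*, the ligase that *Kbtbd8* serves, differed by 0.03. *Ahcy*, which hydrolyses the S-adenosylhomocysteine left by methyl transfer, varied most, at 2.97, 1.73, 28.5 and 1.65 CPM in WT mice 1 to 4 and at 2.87, 57.9, 18.8 and 57.6 CPM in KO mice 1 to 4. High and low *Ahcy* occurred in both genotypes, and its log2 difference of 1.98 had a 95% interval from −0.60 to 4.56.

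Transcripts of the neighbours were also compared, since a cassette or a linked variant could change a start or a splice form without changing the total. Salmon shares reads between transcripts that overlap, and the error of that sharing is not in the test. Of 93 annotated transcripts, 79 had reads and 38 passed the filter. None of the 38 had an adjusted p under 0.1 in edgeR's test (0% of 39966 transcripts tested), and 3 had an unadjusted p under 0.05, beside 2.04% of all transcripts. These were *Magi1*-203 with a log2 difference of −0.42 (SE 0.16), *Frmd4b*-204 with −0.50 (SE 0.20) and *Magi1*-201 with −0.45 (SE 0.18), each with an adjusted p of 1.0 in edgeR's test. Leaving out 1 mouse at a time gave between 0 and 4 such transcripts, with 0 without WT mouse 4 and 1 without WT mouse 3, KO mouse 1 or KO mouse 4.

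*Kbtbd8*-202, the lesser transcript of *Kbtbd8*, was found in some mice only. Its estimated reads were 77.2, 0, 74.8 and 40.3 in WT mice 1 to 4 and 0, 170, 0 and 0 in KO mice 1 to 4, while the main transcript *Kbtbd8*-201 had at least 176 reads in every mouse. *Kbtbd8*-202 was at 0 in all 3 males and in 1 of 5 females, so presence did not follow genotype alone. For *Lrig1*, the main transcript *Lrig1*-202 had 2051, 787, 1736 and 1240 reads in WT mice 1 to 4 and 3.72, 140, 23.0 and 70.4 in KO mice 1 to 4. *Lrig1*-207, annotated as subject to nonsense-mediated decay, had 481, 36.8, 196 and 443 reads in WT mice 1 to 4 and 68.3, 105, 65.0 and 116 in KO mice 1 to 4. WT mice 1, 3 and 4 lay above every KO mouse and WT mouse 2 below, and the log2 difference in CPM was −1.95 (95% interval −3.57 to −0.32, adjusted p 1.0 in edgeR's test).

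*Mitf* and *Prickle2* have several starts, and 2 of each are shown. For *Mitf* these are the starts with the most and the fewest reads, and for *Prickle2* those whose order changed in WT mouse 4. In *Mitf* the first start is the most upstream of 3 RefSeq starts, and the third is the most downstream. Distal starts of *Mitf* are used in many cell types, and a proximal start is used in melanocytes. The entries, from the same table and with the same capitals for CpG, are chr6:97806808-97807107 and chr6:97991533-97991832 on the plus strand, and chr6:92706135-92706434 and chr6:92567317-92567616 on the minus strand.
Mitf start 1: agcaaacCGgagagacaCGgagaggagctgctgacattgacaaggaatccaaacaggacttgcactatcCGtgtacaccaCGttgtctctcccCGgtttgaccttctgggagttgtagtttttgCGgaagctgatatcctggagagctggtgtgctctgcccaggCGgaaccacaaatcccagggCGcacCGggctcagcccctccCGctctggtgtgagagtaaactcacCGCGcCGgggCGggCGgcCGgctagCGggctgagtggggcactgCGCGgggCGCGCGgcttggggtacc
Mitf start 3: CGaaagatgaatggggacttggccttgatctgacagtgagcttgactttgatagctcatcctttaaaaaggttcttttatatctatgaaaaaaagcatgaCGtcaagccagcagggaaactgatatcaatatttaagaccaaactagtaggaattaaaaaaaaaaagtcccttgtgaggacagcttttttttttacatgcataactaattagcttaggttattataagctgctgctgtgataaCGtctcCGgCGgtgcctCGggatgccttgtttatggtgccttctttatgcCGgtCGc
Prickle2 start 1: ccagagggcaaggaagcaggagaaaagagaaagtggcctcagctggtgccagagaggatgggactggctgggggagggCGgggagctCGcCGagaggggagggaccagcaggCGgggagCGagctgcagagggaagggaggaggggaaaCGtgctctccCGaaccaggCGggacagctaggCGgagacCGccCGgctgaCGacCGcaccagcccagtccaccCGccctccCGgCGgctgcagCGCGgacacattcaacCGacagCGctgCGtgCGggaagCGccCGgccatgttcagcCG
Prickle2 start 2: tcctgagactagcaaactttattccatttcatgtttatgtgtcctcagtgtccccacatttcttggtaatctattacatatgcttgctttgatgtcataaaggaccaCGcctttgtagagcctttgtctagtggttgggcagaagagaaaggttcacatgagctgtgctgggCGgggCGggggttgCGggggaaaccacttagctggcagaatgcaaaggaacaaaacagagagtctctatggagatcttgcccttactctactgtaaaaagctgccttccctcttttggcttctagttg
The first start of *Mitf* holds 22 CpG (reached by 23.1% of entries) and the third holds 8 (48.6%). In *Prickle2* the first start holds 25 CpG (18.4%) and the second holds 4 (68.6%).

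Transcripts were assigned to a start where their annotated start lay within 500 bases of it. The first start of *Mitf* held between 66.8% and 95.2% of its TPM in each mouse. The third start held 11.9%, 0%, 21.6% and 18.3% of *Mitf* TPM in WT mice 1 to 4 and 1.01%, 0%, 0.954% and 0.792% in KO mice 1 to 4. WT mice 1, 3 and 4 were higher than all KO mice, but WT mouse 2 had no reads there, and these shares rest on 0 to 15.6 reads in a mouse, which makes them imprecise. Of 6 melanocyte markers listed, 4 were tested and 0 called, while *Mlana* and *Slc45a2* did not pass the filter. Of the 4 tested, 0 were lower in KO mice. An unadjusted p under 0.05 in edgeR's test was found for 1 of them, beside 1.88% of all genes. The markers summed to between 1.82 and 3.14 CPM in WT mice and between 2.39 and 3.67 CPM in KO mice.

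In *Prickle2*, the second start held the largest share in 7 of 8 mice. Its share of *Prickle2* TPM was 48.7%, 43.9%, 62.0% and 30.1% in WT mice 1 to 4 and 42.5%, 60.4%, 49.0% and 52.6% in KO mice 1 to 4. In WT mouse 4 the first start, at 36.2%, was above it. The first start ran from 9.6% in KO mouse 4 to 36.2% in WT mouse 4, and the third from 3.2% in KO mouse 2 to 28.6% in WT mouse 2. In *Foxp1*, start 1 held 9.4% to 13.9%, start 2 held 9.9% to 17.9% and start 3 held 22.6% to 29.7%. Transcripts with no RefSeq start within 500 bases held the largest share of *Foxp1* TPM, 43.4% to 53.2%.

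**Figure D5:**
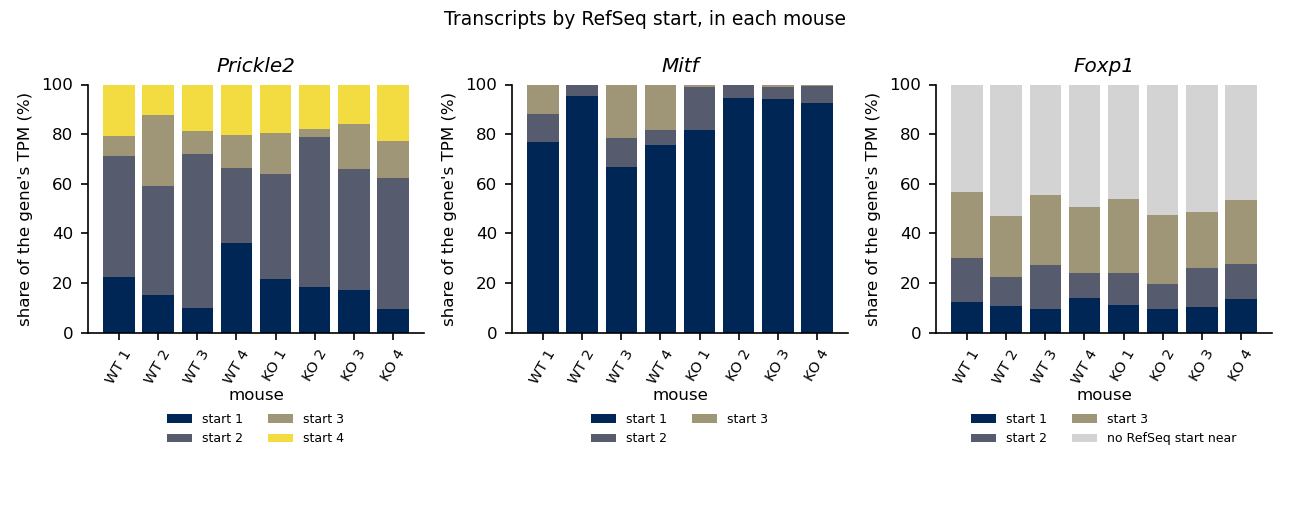
Share of the TPM of *Prickle2*, *Mitf* and *Foxp1* (%) by RefSeq start in each of 4 WT and 4 KO mice, with starts numbered from the most upstream and grey for transcripts with no RefSeq start within 500 bases. The third start of *Mitf* is visible in WT mice 1, 3 and 4 (11.9% to 21.6%), and the starts of *Prickle2* vary in both genotypes.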

How the data were processed

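Libraries were prepared from polyA-selected RNA of 8 mice with the NEBNext Ultra II DNA kit, and FASTQ files were made with bcl2fastq 2.20, per the study's methods and the submitters' processing notes. The authors estimated transcript abundance with Salmon against Gencode M29 (GRCm39) and deposited a gene table of estimated counts without normalization, with a file for each mouse of transcript counts, TPM, length and effective length. The version of Salmon, the use of strand and how transcripts were summed to genes are not given in the sources used here. Gene names and gene order came from Gencode M21 (GRCm38), an older build, so coordinates are given for RefSeq promoter entries alone.

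Counts were rounded and fitted with edgeR 4.0.16 (R 4.3.3; TMM, filterByExpr, quasi-likelihood test, no covariates), KO against WT, with Benjamini-Hochberg adjustment over the 17669 genes tested and a threshold of 0.1. Transcript counts were fitted in the same way. DESeq2 1.42.0, other filters, scalings, covariates and each mouse left out were alternatives. The scripts were tested on simulated data. Named genes are the 10 neighbours, *Lrig1*, other tested genes within 5 Mb with an unadjusted p under 0.05, the adjacent genes, up to 2 genes most like each neighbour, listed relatives and partners, and cell type markers. *Ahcy* was singled out among the partners after its values were seen. The neighbours and lists were chosen with earlier results of these data known. Replicate numbers did not pair the mice. WT mice were littermates, but which mice shared a litter is not given in the sources used here, so litter could not be modelled and p-values measure the spread between these mice.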

Additional observations from a re-analysis of the deposited data

Results flagged for a closer look

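In 4 of 48 groups of 4 mice (8.33%), the highest or lowest mouse stood apart from the others by Dixon's criterion (the gap to the nearest mouse over the range of the group), which chance gives in about 1 of 20 groups. *Slc25a26* in KO mouse 2 was at 9.45 CPM, below the other KO mice, which lay between 10.9 and 11.1 CPM. *Tafa1* in WT mouse 2 was at 29.5 CPM, above the other WT mice at 1.17 to 6.01 CPM. In the same mouse the cortical excitatory markers summed to 6731 CPM, against 2906 to 3123 CPM in the other WT mice. The melanocyte markers summed to 3.14 CPM in WT mouse 4, against 1.82 to 1.96 CPM in the other WT mice, and to 2.39 to 3.67 CPM in KO mice. WT mouse 2 was the only male among the WT mice. Whether these levels share a source was not tested.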

How the results depend on the processing

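No neighbour passed the threshold under any of the 12 other fits or with any mouse left out, and neither did the other genes within 5 Mb. Of 120 log2 differences under the 12 fits, 111 kept their sign and 9 turned, without a test passed. With the cortical score as a covariate, *Slc25a26* was 0.014, *Magi1* 0.025 and *Tafa1* 1.07. With the striatal score *Tafa1* was 0.63. In females alone *Magi1* was 0.18, *Tafa1* 0.70 and *Mitf* −0.12. There *Frmd4b* had an unadjusted p of 0.0175 (adjusted p 0.844 in edgeR's test), the 1 neighbour under 0.05. The share of all genes under 0.05 is not given for that fit, so this count cannot be set against it. With transcript sums and length offsets *Mitf* was −0.025. With replicate number as a block, *Tafa1* was 0.35 and no call changed. The numbers did not pair the mice (correlations of deviations 0.08, −0.22, −0.22 and 0.27 for numbers 1 to 4). The cause of these turns was not tested.

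Leaving out each mouse in turn turned 12 of 80 values. The ranges were −0.13 to 0.042 for *Slc25a26*, −0.039 to 0.17 for *Kbtbd8*, 0.02 to 0.12 for *Suclg2*, −0.20 to 0.11 for *Magi1*, −0.15 to −0.02 for *Prickle2*, −0.24 to −0.12 for *Adamts9*, −0.68 to 1.32 for *Tafa1*, −0.20 to −0.06 for *Frmd4b*, −0.020 to 0.21 for *Mitf* and −0.26 to 0.032 for *Foxp1*. Genes within 5 Mb with an unadjusted p under 0.05 numbered 1 of 40 in the fit reported. The count was 3 of 40 with sex as a covariate and 4 of 81 in DESeq2 with sex, beside 4.65% of all genes in the latter. It was 3 of 81 with no filter, 0 of 40 with transcript sums, and 0 or 1 with a mouse left out. Transcripts of the neighbours numbered 5 with no filter. Shares of all genes or transcripts are not given for the fits with no filter, transcript sums or a mouse left out. With sex as a covariate 6.95% of all genes tested had an unadjusted p under 0.05, against 1.88% without, and at an adjusted p under 0.1 edgeR called 1 gene without sex and 2 with sex, while DESeq2 called 12 without sex and 201 with sex. The third start of *Mitf* rests on at most 15.6 reads in a mouse.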
